A study of Homo sapiens with 12 samples.

Results

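The genes of the integrin receptors and of the laminins, the matrix proteins that several integrins bind, were followed in MIA PaCa-2 cells after knockdown of the Musashi RNA-binding proteins. Members were taken by symbol: 18 integrin alpha chains, 8 integrin beta chains, 12 laminin chains and 1 antisense RNA (ITGA9-AS1, whose symbol matched the same pattern), 39 genes of the 24528 in the table. Of these, 35 passed the filter on low counts and were tested among 15021 genes. MIA PaCa-2 is an established human pancreatic carcinoma line. Its cells had been infected with short hairpin RNAs (shRNAs): a scrambled control, an shRNA against MSI1 tagged with GFP, an shRNA against MSI2 tagged with Tomato Red, or both. Infection lasted 72 hours, and cells were sorted on fluorescence, and the double-knockdown cells were positive for both colours. For the control cells' gate, the number of hairpins per gene and separate cultures of replicates, the sources used here give no detail. Each of the 4 groups had 3 libraries, and p-values measure only the spread between them, which may be technical.

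Integrins are surface receptors made of an alpha and a beta chain, and the pair decides the ligand. Most alpha chains here pair with ITGB1, the chain shared by receptors for laminin (ITGA3, ITGA6 and ITGA7), collagen (ITGA1, ITGA2, ITGA10 and ITGA11) and fibronectin (ITGA5). ITGAV pairs with several beta chains, and ITGA6 also pairs with ITGB4 in hemidesmosomes, which tie epithelial cells to the basement membrane. Laminins are trimers of an alpha, a beta and a gamma chain that build that membrane. In pancreatic carcinoma, integrins and laminins are known for their part in adhesion, invasion and survival signalling.

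The total of estimated counts per library, in units of 1e6, was 10.9 to 35.0 under control shRNA, 26.8 to 38.9 under Msi1 shRNA, 39.7 to 53.0 under Msi2 shRNA and 39.9 to 56.1 under both. The targeted transcripts were low where their shRNA was given: MSI1 ran from 1.45 to 2.01 counts per 1e6 (CPM) in the 6 libraries with its shRNA and from 4.13 to 7.001 in the other 6. MSI2 ran from 11.1 to 17.3 CPM with its shRNA. Without it, MSI2 ran from 80.7 to 86.3 CPM in control and from 52.1 to 56.5 CPM in the Msi1 knockdown. MSI2 was thus lower under the Msi1 shRNA alone as well. MSI1 ran from 4.13 to 4.93 CPM in control and from 5.37 to 7.001 CPM in the Msi2 knockdown. The libraries also differed within groups along a trend, the first component of the deviations from the group means, which held 54.5% of that variance. The score of a library on it, also used as the covariate, was taken from levels centred over all libraries and not within groups. Scores therefore also hold differences between the groups. They ran from -1.54 to -1.05 in the double knockdown and from -0.39 to 1.38 in the other 9 libraries. The integrin and laminin genes stood high on this trend: 13 of the 15 members abundant enough to be placed lay above the 80th percentile of the genes placed. Genes of low level were not placed. They are also long, with a median longest transcript of 5618 bases against 3534 for all tested genes. A regression of log2 level on log2 length had a slope of 0.438 to 0.483 in the double knockdown and 0.502 to 0.569 in the others. For the double knockdown the group and this trend therefore cannot be told apart, and values with the trend as a covariate are given where they change a call or a direction against control.

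ITGB1 was by far the most abundant integrin chain per length. Levels between genes are compared as CPM per kb of the longest transcript. In control cells ITGB1 stood at 385 CPM per kb, which was 85.6% of the sum over the 8 beta chains, and ITGB4 at 50.1 CPM per kb made up 11.1%. ITGB5, a partner of ITGAV in vitronectin receptors, stood at 12.9 CPM per kb and ITGB8 at 1.11. Among alpha chains ITGA3 led with 35.5 CPM per kb (46.1% of the alpha sum), followed by ITGAV at 15.1, ITGA5 at 10.8 and ITGA6 at 9.83. The sum of the alpha chains was 76.9 ± 7.91 CPM per kb (SD, n = 3) against 450.0 ± 43.6 for the beta chains.

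The laminin transcripts were mainly those of LAMA5, LAMB2, LAMB1 and LAMC1. LAMA5 at 7.44 CPM per kb made up 75.6% of the laminin alpha sum in control cells, with LAMA2 at 2.13 CPM per kb second. LAMB2 at 24.6 and LAMB1 at 7.66 CPM per kb made up 75.5% and 23.5% of the beta sum. LAMC1 at 27.6 CPM per kb made up 96.6% of the gamma sum. LAMA3 and LAMB3, chains of the epithelial laminin that anchors hemidesmosomes, were low, at 0.202 and 0.207 CPM per kb.

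**Figure D1:**
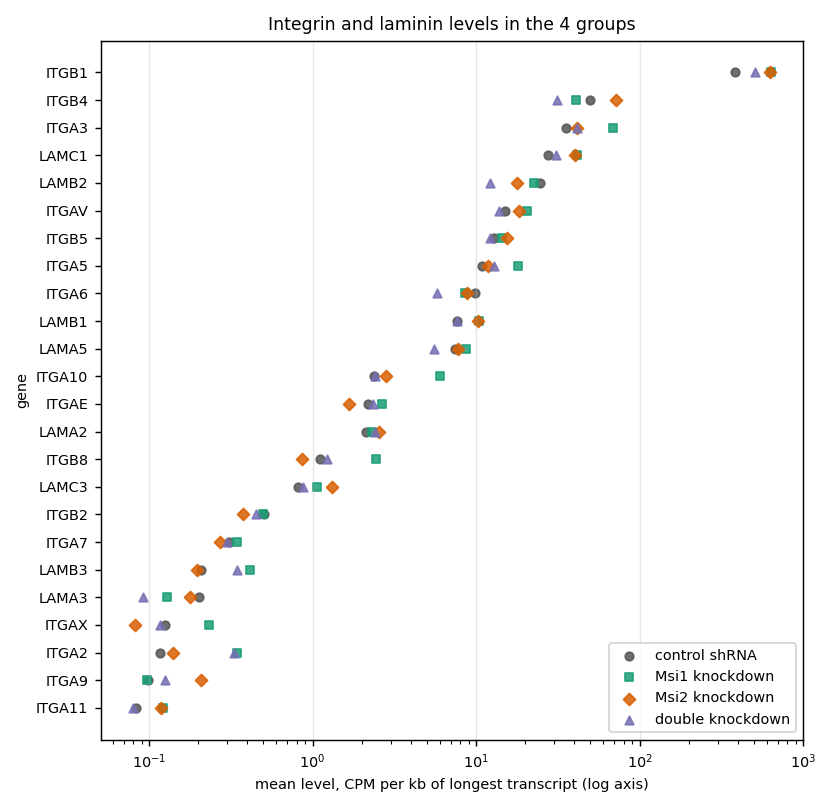
Mean level in CPM per kb of the longest transcript (log axis) for the 24 tested integrin and laminin genes with a group mean of at least 1 CPM, in order of the control level. Each symbol is the mean of 3 libraries of 1 group, and ITGB1 lies to the right of all other genes in each group.

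Promoter sequences are shown for 4 members on which the results below turn: ITGB1, which rose in all 3 knockdowns, ITGA10, with the largest rise in the Msi1 knockdown among members of at least 5 CPM, and the laminin beta genes LAMB1 and LAMB2, which moved apart. Each window runs from 250 bases before to 50 bases after the RefSeq gene start, 5′ to 3′ on the gene's strand. Coordinates are of GRCh38.p14 and not of hg19, the build named in the submitters' processing notes. Of the 39 members, 26 were found in the set of promoter sequences used here, and ITGB4 and ITGA3 were not among them. Capitals mark matches to 3 motifs searched on both strands: the AP-1 motif TGANTCA, the GC box GGGCGG and the TEAD motif GGAATG.
ITGB1 (GRCh38.p14 chr10:32958181-32958480, minus strand): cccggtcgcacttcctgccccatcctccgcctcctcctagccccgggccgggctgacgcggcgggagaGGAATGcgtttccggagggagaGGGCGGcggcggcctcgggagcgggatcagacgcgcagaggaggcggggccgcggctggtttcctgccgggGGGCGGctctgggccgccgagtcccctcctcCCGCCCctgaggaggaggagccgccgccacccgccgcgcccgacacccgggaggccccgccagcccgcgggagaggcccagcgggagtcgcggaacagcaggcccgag
ITGA10 (GRCh38.p14 chr1:145910001-145910300, minus strand): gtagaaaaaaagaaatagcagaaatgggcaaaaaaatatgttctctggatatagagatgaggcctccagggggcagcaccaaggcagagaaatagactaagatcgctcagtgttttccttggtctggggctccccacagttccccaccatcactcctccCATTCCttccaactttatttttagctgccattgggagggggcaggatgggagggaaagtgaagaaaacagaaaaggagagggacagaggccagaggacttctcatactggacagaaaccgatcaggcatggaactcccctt
LAMB1 (GRCh38.p14 chr7:108003112-108003411, minus strand): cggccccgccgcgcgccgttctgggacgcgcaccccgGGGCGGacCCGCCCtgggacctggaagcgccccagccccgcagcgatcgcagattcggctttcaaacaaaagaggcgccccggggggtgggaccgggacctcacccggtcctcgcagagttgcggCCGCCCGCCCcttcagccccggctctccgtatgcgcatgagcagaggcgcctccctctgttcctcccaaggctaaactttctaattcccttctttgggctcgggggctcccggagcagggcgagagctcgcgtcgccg
LAMB2 (GRCh38.p14 chr3:49133001-49133300, minus strand): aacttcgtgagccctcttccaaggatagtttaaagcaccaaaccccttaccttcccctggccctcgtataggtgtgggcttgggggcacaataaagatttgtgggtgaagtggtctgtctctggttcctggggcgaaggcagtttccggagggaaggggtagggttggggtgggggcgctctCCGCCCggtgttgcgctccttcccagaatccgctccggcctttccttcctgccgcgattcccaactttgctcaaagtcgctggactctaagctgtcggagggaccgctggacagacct
ITGB1 held 3 GC boxes and 1 TEAD motif, ITGA10 1 TEAD motif and no GC box, LAMB1 4 GC boxes, of which 2 overlap each other, and LAMB2 1 GC box. None of the 4 held the AP-1 motif. No match overlapped one of another motif. Over all 35116 promoters of this length, 45.0% held a GC box, 14.0% the TEAD motif and 7.71% the AP-1 motif. Among the 26 member promoters the counts were 14, 4 and 2. A match is a run of letters and not evidence of binding.

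Against control, more integrin and laminin genes rose than fell in each single knockdown, and as many rose as fell in the double knockdown. In the Msi1 knockdown 12 of 35 members rose (34.3%, against 18.5% of all genes tested) and 3 fell (8.57%, against 20.9%). In the Msi2 knockdown 9 rose (25.7%, against 16.7%) and 3 fell (8.57%, against 13.6%). In the double knockdown 5 rose and 5 fell (14.3% each, against 26.6% and 25.3%). The median log2 change over the 35 members was 0.43, 0.12 and 0.0046 in the 3 comparisons, and between -0.015 and -0.0018 over all genes. A call is an adjusted p below 0.05 in the quasi-likelihood test of edgeR, with p-values adjusted by Benjamini-Hochberg over all 15021 genes, and changes are log2 values ± standard error. The 3 comparisons share the control libraries. In bulk libraries fewer cells of a type and less RNA per cell cannot be told apart. Without double knockdown replicate 1 the 5 rises became 2, and they became 3 without double knockdown replicate 3, without control replicate 1 or without control replicate 3. With the trend as a covariate 11 rose and 4 fell in the double knockdown, beside 3021 rises and 2784 falls among all 15021 genes. The 3 falls in the Msi1 knockdown became 1 without control replicate 2 or without Msi1 knockdown replicate 1, and those in the Msi2 knockdown became 1 without control replicate 2 or without Msi2 knockdown replicate 1.

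Of the beta chains, ITGB1 rose in all 3 knockdowns, and it was the only member of the 35 called higher in each. The share of all genes called higher in each was not counted. ITGB1 stood, in CPM, at 1341, 1615 and 1418 under control shRNA, 2152, 2514 and 2582 under Msi1 shRNA, 2209, 2496 and 2427 under Msi2 shRNA and 1850.5, 1914 and 1999 under both. Every knockdown library lay above every control library, with the double knockdown lowest of the 3 knockdown groups. It rose by 0.73 ± 0.09 (adjusted p = 3.2e-06) on the log2 scale under Msi1 shRNA, 0.71 ± 0.09 (adjusted p = 9.2e-06) under Msi2 shRNA and 0.40 ± 0.09 (adjusted p = 0.00114) under both.

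ITGB4, the hemidesmosome chain, moved in opposite directions in the single knockdowns. ITGB4 stood, in CPM, at 279, 334 and 276 under control shRNA, 206, 258 and 264 under Msi1 shRNA, 422, 451 and 403 under Msi2 shRNA and 186, 177 and 195 under both. The Msi2 knockdown libraries lay above all others, and the double-knockdown libraries below all others. Against control the changes were -0.29 ± 0.09 (adjusted p = 0.0145) in the Msi1, 0.52 ± 0.09 (adjusted p = 2.0e-04) in the Msi2 and -0.67 ± 0.09 (adjusted p = 5.4e-06) in the double knockdown, and the Msi2 against the Msi1 knockdown differed by 0.81 ± 0.09 (adjusted p = 7.5e-07). The fall in the Msi1 knockdown was lost on leaving out control replicate 2 (adjusted p = 0.0991) or Msi1 knockdown replicate 1 (log2 -0.19, adjusted p = 0.0605). With the trend as a covariate the changes were -0.47 in the Msi1 and -0.39 in the double knockdown.

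ITGB8, whose product pairs with the ITGAV chain and binds latent TGF-beta, rose in the Msi1 knockdown. ITGB8 stood, in CPM, at 9.98, 11.2 and 7.999 under control shRNA, 18.3, 22.9 and 23.1 under Msi1 shRNA, 6.85, 8.91 and 6.88 under Msi2 shRNA and 9.89, 10.7 and 11.4 under both. The Msi1 knockdown libraries lay above the other 9. Its log2 change was 1.10 ± 0.12 (adjusted p = 7.5e-07) in the Msi1 knockdown, -0.40 ± 0.13 (adjusted p = 0.0219) with the Msi2 shRNA and 0.09 ± 0.12 (adjusted p = 0.574) with both. The Msi2 call was lost on leaving out control replicate 1 (adjusted p = 0.0622), control replicate 2 (0.121), or in the knockdown replicate 1 (0.0858) or replicate 3 (0.0753), and the libraries of the Msi2 knockdown and control overlapped. With the trend as a covariate the double-knockdown change passed at 0.47 (adjusted p = 5.3e-04). ITGB5 stood, in CPM, at 55.2, 60.5 and 53.6 under control shRNA, 54.4, 64.5 and 68.9 under Msi1 shRNA, 64.1, 70.4 and 67.8 under Msi2 shRNA and 54.9, 50.2 and 55.0 under both. Its Msi2 knockdown libraries lay above control and the other groups overlapped control. Its Msi1 change was 0.14 ± 0.08 (adjusted p = 0.158), or 0.24 (adjusted p = 0.0104) without Msi1 knockdown replicate 1. Only the Msi2 change passed (0.25 ± 0.08, adjusted p = 0.0185), a call lost on leaving out control replicate 1 (adjusted p = 0.0901), control replicate 3 (0.0785) or, in the knockdown, replicate 2 (0.0599). ITGB3, the beta chain of the platelet and ITGAV receptors, ran from 0 to 1.25 CPM, with a log2 change of 1.24 ± 0.46 (adjusted p = 0.049) in the Msi2 knockdown that was lost in 9 of the other settings, among them each control library left out (adjusted p = 0.107, 0.0697 and 0.103 for replicates 1 to 3), Msi2 knockdown replicate 2 (log2 0.74) and Msi2 knockdown replicate 3.

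Of the laminin-binding alpha chains, ITGA3 rose and ITGA6 fell. ITGA3, which with ITGB1 forms a main receptor for laminin-511 and laminin-332, stood, in CPM, at 189, 216 and 178 under control shRNA, 328, 403 and 397 under Msi1 shRNA, 219.8, 243 and 215 under Msi2 shRNA and 234, 214 and 237 under both. The Msi1 knockdown libraries lay above the rest, and the Msi2 knockdown and double-knockdown libraries overlapped control. The log2 change was 0.95 ± 0.09 (adjusted p = 5.5e-08) in the Msi1 knockdown, 1.93-fold, against 0.22 ± 0.09 (adjusted p = 0.0636) in the Msi2 and 0.23 ± 0.09 (adjusted p = 0.0303) in the double knockdown. The Msi2 change passed in 7 other settings, at 0.17 (adjusted p = 0.00228) with the trend as a covariate. The call in the double knockdown was lost in 7 settings, among them without control replicate 1 (adjusted p = 0.0941), control replicate 3 (0.162), double knockdown replicate 1 (0.0911) and double knockdown replicate 3 (0.121), and the change was 0.49 with the trend as a covariate. ITGA6 stood, in CPM, at 51.1, 60.8 and 53.8 under control shRNA, 43.5, 50.9 and 49.0 under Msi1 shRNA, 46.2, 53.3 and 49.6 under Msi2 shRNA and 31.0, 32.9 and 33.5 under both. The double-knockdown libraries lay below all others. Its log2 change was -0.77 ± 0.08 (adjusted p = 2.1e-07) in the double knockdown, -0.21 ± 0.08 (adjusted p = 0.0358) with the Msi1 shRNA alone and -0.15 ± 0.08 (adjusted p = 0.146) with the Msi2 shRNA alone, the last -0.18 (adjusted p = 0.00554) with the trend as a covariate. The Msi1 call was lost on leaving out control replicate 2 (log2 -0.13, adjusted p = 0.219), control replicate 3 (0.0597), Msi1 knockdown replicate 1 (0.139) or Msi1 knockdown replicate 3 (0.0715), and was -0.33 with the trend as a covariate. ITGA7, the muscle laminin receptor chain, ran from 0.988 to 1.60 CPM and passed in no comparison with control.

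Of the collagen-binding alpha chains, ITGA10 and ITGA2 rose. ITGA10, described mainly in cartilage, stood, in CPM, at 10.9, 14.1 and 12.7 under control shRNA, 26.5, 34.8 and 33.4 under Msi1 shRNA, 15.1, 18.5 and 10.99 under Msi2 shRNA and 13.4, 10.8 and 14.1 under both. Only the Msi1 knockdown stood apart, above the other 9 libraries, with a log2 change of 1.34 ± 0.19 (adjusted p = 1.2e-04), 2.52-fold. The changes in the Msi2 and double knockdowns were 0.25 ± 0.19 (adjusted p = 0.371) and 0.03 ± 0.19 (adjusted p = 0.916). The Msi2 change became 0.43 (adjusted p = 0.034) without Msi2 knockdown replicate 3, and the double-knockdown change 0.56 (adjusted p = 0.00102) with the trend as a covariate. ITGA2, the alpha chain of the main epithelial collagen receptor, was low but split the libraries by the Msi1 shRNA. ITGA2 stood, in CPM, at 0.925, 0.919 and 0.899 under control shRNA, 2.39, 3.12 and 2.65 under Msi1 shRNA, 1.08, 1.10 and 1.13 under Msi2 shRNA and 2.52, 2.86 and 2.44 under both. The 6 libraries given the Msi1 shRNA lay above the 6 that were not. Changes of 1.57 ± 0.18 (adjusted p = 1.0e-06) in the Msi1, 0.27 ± 0.19 (adjusted p = 0.336) in the Msi2 and 1.50 ± 0.18 (adjusted p = 1.2e-06) in the double knockdown were found. ITGA1 and ITGA11 reached at most 1.09 and 1.44 CPM and passed in no comparison with control.

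Of the alpha chains that bind the RGD sequence of matrix proteins, ITGA5 and ITGAV rose in the Msi1 knockdown. ITGA5, the fibronectin receptor chain, stood, in CPM, at 51.2, 63.0 and 47.9 under control shRNA, 79.2, 96.2 and 96.2 under Msi1 shRNA, 56.6, 64.5 and 56.7 under Msi2 shRNA and 67.4, 62.5 and 64.4 under both. The Msi1 knockdown libraries lay above the other 9, and the log2 change was 0.73 ± 0.09 (adjusted p = 4.5e-06). With the Msi2 shRNA it was 0.12 ± 0.09 (adjusted p = 0.354), and with both shRNAs 0.25 ± 0.09 (adjusted p = 0.0304), lost in 7 settings, among them without control replicate 1 (adjusted p = 0.118), control replicate 3 (0.151), double knockdown replicate 1 (0.0999) and double knockdown replicate 3 (0.0645), and 0.52 with the trend as a covariate. ITGAV stood, in CPM, at 97.3, 118 and 104 under control shRNA, 119, 150.2 and 162 under Msi1 shRNA, 118, 146 and 122 under Msi2 shRNA and 91.3, 96.7 and 103 under both. The lowest libraries of both single knockdowns lay just above the highest control library, and the double knockdown overlapped control. The log2 changes were 0.43 ± 0.11 (adjusted p = 0.00389), 0.28 ± 0.11 (adjusted p = 0.0602) and -0.13 ± 0.11 (adjusted p = 0.32) in the Msi1, Msi2 and double knockdowns, with 0.21 in the Msi1 knockdown when the trend was a covariate. In that fit the double-knockdown change turned to 0.21 (adjusted p = 0.0134), and the Msi2 change passed at 0.22 (adjusted p = 4.6e-04), as it did in 6 other settings. ITGA2B, the platelet chain, stayed at or below 0.654 CPM and passed in none of the 3.

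Of the 6 alpha chains known mainly from leukocytes (ITGA4, ITGAD, ITGAE, ITGAL, ITGAM and ITGAX), only ITGAE reached 5 CPM. ITGAE, the chain of the receptor for E-cadherin, stood, in CPM, at 8.38, 9.33 and 7.73 under control shRNA, 11.7, 9.74 and 9.37 under Msi1 shRNA, 5.80, 6.42 and 7.26 under Msi2 shRNA and 9.35, 9.10 and 8.76 under both. The Msi2 knockdown libraries lay below control, with a log2 change of -0.40 ± 0.11 (adjusted p = 0.00815), and the changes in the Msi1 and double knockdowns were 0.26 ± 0.11 (adjusted p = 0.0592) and 0.08 ± 0.11 (adjusted p = 0.556). The Msi1 change passed in 6 other settings, at 0.47 (adjusted p = 0.00875) after thinning and 0.34 (adjusted p = 0.00757) with the trend as a covariate. The Msi2 call was lost on leaving out control replicate 2 (adjusted p = 0.0521) or, in the knockdown, replicate 1 (0.0502). It was also lost on thinning libraries to the smallest total (adjusted p = 0.0664). ITGA9, a tenascin receptor chain, had a mean of 0.776 ± 0.302 CPM in control and 1.65 ± 0.195 CPM in the Msi2 knockdown. The call (log2 1.01 ± 0.26, adjusted p = 0.00535) was lost on leaving out control replicate 1 (adjusted p = 0.0605) or on thinning (0.0633). ITGAX, a complement receptor chain, went from 0.590 ± 0.309 to 1.10 ± 0.0741 CPM in the Msi1 knockdown (log2 1.11 ± 0.30, adjusted p = 0.00635). That call was lost on leaving out control replicate 1 (log2 0.68, adjusted p = 0.0954) or on thinning (adjusted p = 0.0725). ITGAD and ITGAM passed in none of the 3 comparisons, and neither did the leukocyte beta chains ITGB2 and ITGB7, at no more than 3.05 and 0.357 CPM. With the trend as a covariate the Msi2 change of ITGB2 passed at -0.47 (adjusted p = 0.0284). ITGA4, ITGA8, ITGAL and ITGB6 were not tested for low counts: the first 3 had at most 2, 13 and 13 counts in a library, and ITGB6 had none in any. The defining blood cell markers PTPRC, CD3E and SPI1 stood at 0 to 0.110 CPM, but the summed level of the 9 blood cell and platelet markers ran from 18.2 to 21.0 CPM in control and from 37.3 to 51.7 CPM in the knockdowns, mostly CD68, which rose in all 3.

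**Figure D2:**
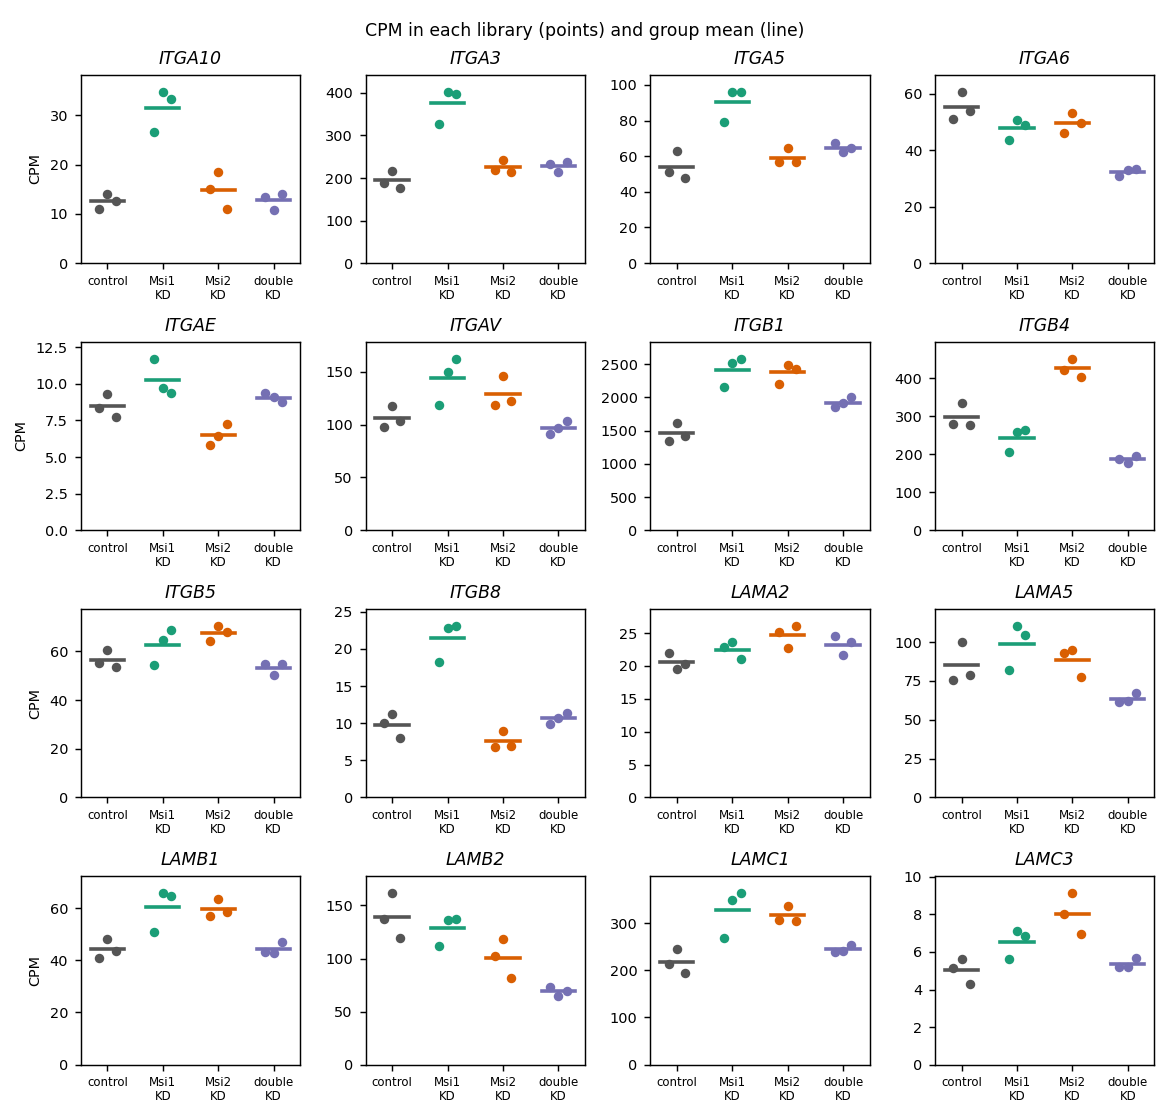
CPM (vertical axes from 0) in each of the 12 libraries for the 16 integrin and laminin genes with at least 5 CPM in a group and a call in at least 1 comparison with control, by group. Points are libraries and lines are group means. ITGA3, ITGA10, ITGA5 and ITGB8 stand apart in the Msi1 knockdown, and ITGA6, ITGB4 and LAMB2 are lowest in the double knockdown.

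Of the laminin alpha chains, LAMA5 and LAMA3 fell in the double knockdown. LAMA5, the alpha chain of laminin-511 and laminin-521, stood, in CPM, at 75.8, 100.3 and 79.1 under control shRNA, 82.0, 110.4 and 104 under Msi1 shRNA, 93.2, 95.2 and 77.5 under Msi2 shRNA and 61.1, 61.8 and 67.2 under both. The double-knockdown libraries lay below all others, with a log2 change of -0.43 ± 0.12 (adjusted p = 0.00717). The changes in the Msi1 and Msi2 knockdowns were 0.21 ± 0.12 (adjusted p = 0.17) and 0.06 ± 0.12 (adjusted p = 0.772). The Msi1 change became 0.36 (adjusted p = 0.0157) without control replicate 2 and 0.33 (adjusted p = 0.0253) without Msi1 knockdown replicate 1. LAMA5 has the longest transcript of the members, and its fall was -0.25 with a transcript length offset and -0.04 with the trend as a covariate (adjusted p = 0.718). LAMA2, the muscle laminin chain, stood, in CPM, at 22.001, 19.5 and 20.3 under control shRNA, 22.9, 23.6 and 21.0 under Msi1 shRNA, 25.1, 22.8 and 26.1 under Msi2 shRNA and 24.6, 21.6 and 23.6 under both. The Msi2 knockdown libraries lay above control, and those of the other groups overlapped it. Only its Msi2 change passed (0.26 ± 0.08, adjusted p = 0.018), and it was lost in 5 settings, among them without control replicate 2 (adjusted p = 0.113), control replicate 3 (0.0528), Msi2 knockdown replicate 1 (0.0603) and Msi2 knockdown replicate 3 (0.0687). Its double-knockdown change of 0.17 ± 0.08 (adjusted p = 0.0723) was 0.34 (adjusted p = 0.00372) with the length offset, and its Msi1 change of 0.13 ± 0.08 (adjusted p = 0.222) was 0.20 (adjusted p = 0.0278) with the trend as a covariate. LAMA1 and LAMA4 stayed at or below 0.508 and 0.549 CPM and passed in none of the 3.

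The laminin beta chains moved apart. LAMB2, a chain of laminin-521, stood, in CPM, at 138, 162 and 119 under control shRNA, 112, 136 and 137 under Msi1 shRNA, 103, 118 and 81.5 under Msi2 shRNA and 73.3, 64.9 and 69.6 under both. The level was lowest in the double knockdown, whose libraries lay below all others, and the Msi2 knockdown libraries also lay below control. The log2 changes were -0.12 ± 0.13 (adjusted p = 0.498), -0.48 ± 0.13 (adjusted p = 0.0159) and -1.02 ± 0.13 (adjusted p = 3.7e-05) in Msi1, Msi2 and double knockdown, the last -0.62 with the trend as a covariate. In that fit the Msi1 change was -0.38 (adjusted p = 4.2e-05) and passed. The Msi2 call was lost in a model of the compared groups alone (adjusted p = 0.0746). LAMB1, the beta chain of laminin-511, stood, in CPM, at 41.1, 48.0 and 43.5 under control shRNA, 50.8, 65.8 and 64.8 under Msi1 shRNA, 56.9, 63.5 and 58.6 under Msi2 shRNA and 43.3, 42.8 and 47.1 under both. Both single knockdowns lay above control, and the double knockdown overlapped it. Its changes were 0.45 ± 0.09 (adjusted p = 4.2e-04), 0.43 ± 0.09 (adjusted p = 8.8e-04) and 0.00 ± 0.09 (adjusted p = 0.972), with 0.29 in the Msi1 knockdown when the trend was a covariate. In that fit the double-knockdown change was 0.27 (adjusted p = 0.0052) and passed. LAMB4 reached at most 1.06 CPM and passed in none of the 3.

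The gamma chains LAMC1 and LAMC3 rose in both single knockdowns. LAMC1, the gamma chain of most laminins, stood, in CPM, at 213, 245 and 194 under control shRNA, 269, 349 and 363 under Msi1 shRNA, 307, 337 and 304 under Msi2 shRNA and 239.6, 239.8 and 252 under both. Both single knockdowns lay above control, and the double knockdown overlapped it. Log2 changes of 0.58 ± 0.10 (adjusted p = 9.3e-05), 0.53 ± 0.10 (adjusted p = 3.6e-04) and 0.16 ± 0.10 (adjusted p = 0.173) were found in the Msi1, Msi2 and double knockdowns, with 0.38 in the Msi1 knockdown when the trend was a covariate. The double-knockdown change passed with that covariate at 0.47 (adjusted p = 7.3e-07), with the length offset at 0.30 (adjusted p = 0.00451) and with only the compared groups at 0.16 (adjusted p = 0.0437). LAMC3 stood, in CPM, at 5.16, 5.62 and 4.31 under control shRNA, 5.62, 7.10 and 6.83 under Msi1 shRNA, 8.01, 9.14 and 6.96 under Msi2 shRNA and 5.19, 5.18 and 5.68 under both. The Msi2 knockdown libraries lay above all control libraries, with a log2 change of 0.64 ± 0.12 (adjusted p = 5.7e-04). The changes in the Msi1 and double knockdowns were 0.33 ± 0.13 (adjusted p = 0.0449) and 0.05 ± 0.13 (adjusted p = 0.771), the latter 0.41 (adjusted p = 0.0112) with the trend as a covariate. The Msi1 call was lost in 7 settings, among them without control replicate 1 (adjusted p = 0.106), control replicate 3 (0.114), Msi1 knockdown replicate 2 (0.166) and Msi1 knockdown replicate 3 (0.0889), and with the trend as a covariate (log2 0.12).

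LAMA3 and LAMB3 moved in opposite directions in the Msi1 and double knockdowns. LAMA3 stood, in CPM, at 2.13, 2.63 and 1.71 under control shRNA, 1.32, 1.26 and 1.53 under Msi1 shRNA, 1.96, 1.83 and 1.94 under Msi2 shRNA and 1.02, 0.783 and 1.14 under both. The 6 libraries with the Msi1 shRNA lay below the 6 without it. Its log2 changes were -0.72 ± 0.19 (adjusted p = 0.00485) in the Msi1, -0.23 ± 0.17 (adjusted p = 0.354) in the Msi2 and -1.19 ± 0.19 (adjusted p = 3.8e-05) in the double knockdown. LAMB3 stood, in CPM, at 0.841, 1.02 and 0.809 under control shRNA, 1.97, 1.49 and 1.92 under Msi1 shRNA, 0.753, 1.06 and 0.724 under Msi2 shRNA and 1.75, 1.47 and 1.22 under both. All 6 libraries with the Msi1 shRNA lay above the other 6. It changed by 0.98 ± 0.23 (adjusted p = 0.00226), -0.08 ± 0.25 (adjusted p = 0.837) and 0.72 ± 0.23 (adjusted p = 0.0133) in the same order, the last lost on leaving out control replicate 1 (adjusted p = 0.0662) or double knockdown replicate 1 (0.0713). With libraries thinned to the smallest total, the LAMB3 change in the Msi1 knockdown was 1.64.

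**Figure D3:**
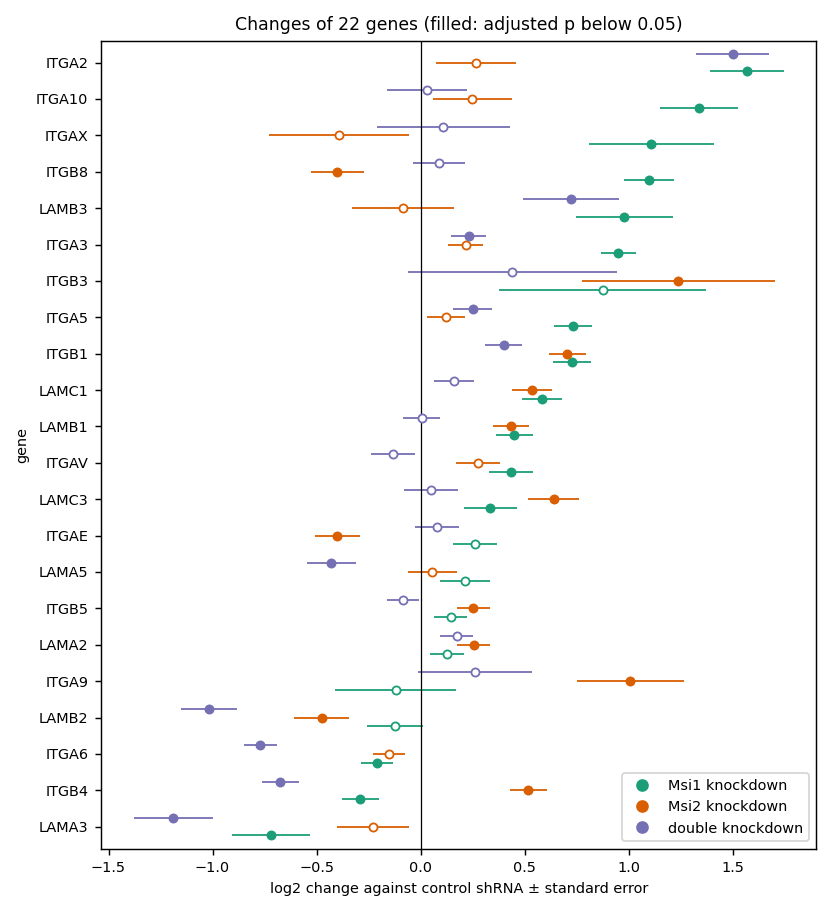
Log2 change against control shRNA (horizontal axis, bars are standard errors) for the 22 integrin and laminin genes called in at least 1 of the 3 comparisons, ordered by the Msi1 change. Filled points passed at an adjusted p below 0.05, and ITGB1 is the only gene with 3 filled points to the right of 0.

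Ratios between chains of 1 library do not depend on how libraries are scaled. Of these, 3 were computed, chosen after the values above were seen, and they are given as a description with no test. ITGB4 over ITGB1, per length, was 0.133, 0.132 and 0.124 in the control libraries and 0.122, 0.115 and 0.106 in the Msi2 knockdown, against 0.0612, 0.0656 and 0.0655 in the Msi1 knockdown and 0.0643, 0.0592 and 0.0623 in the double knockdown. The 6 libraries with the Msi1 shRNA therefore lay between 0.0592 and 0.0656, and the 6 without it between 0.106 and 0.133, with no overlap. ITGB4 over ITGA6, the 2 chains of the hemidesmosome integrin, was 8.13 ± 0.481 in the Msi2 knockdown (SD, n = 3), against 5.09 ± 0.198 in control, 4.81 ± 0.313 in the Msi1 and 5.44 ± 0.297 in the double knockdown. This ratio was set apart in the Msi2 knockdown, while the double knockdown, in which both transcripts fell, lay near control. LAMB1 over LAMB2 was 0.294, 0.292 and 0.360 in the control libraries, 0.446, 0.474 and 0.464 in the Msi1, 0.545, 0.530 and 0.707 in the Msi2 and 0.581, 0.649 and 0.666 in the double knockdown. Every knockdown library lay above every control library, and in all 4 groups LAMB2 remained the more abundant chain per length.

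**Figure D4:**
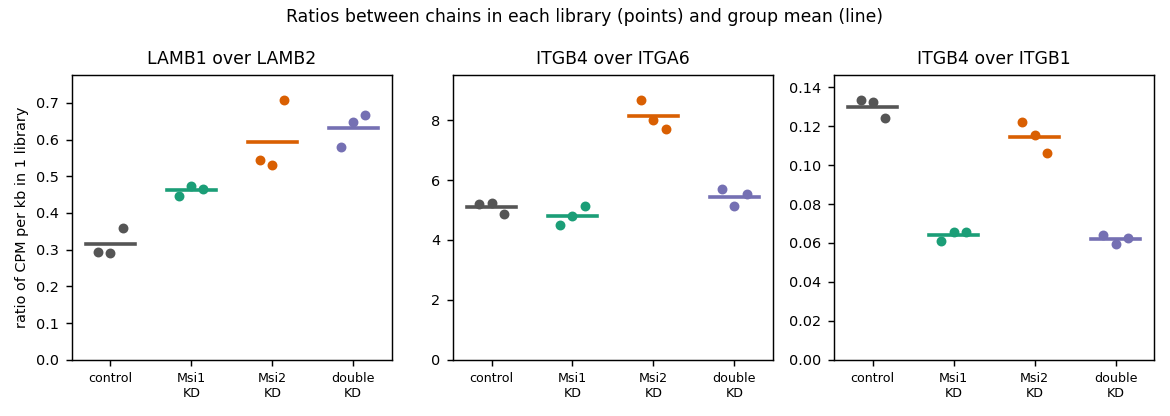
Ratios of CPM per kb between 2 chains in each library (vertical axes from 0), by group; points are libraries and lines are group means. ITGB4 over ITGB1 is at or below 0.0656 in all libraries with the Msi1 shRNA and at or above 0.106 in all libraries without it.

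Between the single knockdowns, 4 of 35 members were higher and 10 lower in the Msi2 than in the Msi1 knockdown (11.4% and 28.6%, against 22.3% and 18.9% of all genes). Higher in the Msi2 knockdown were ITGB4, ITGA9 (1.13 ± 0.24, adjusted p = 9.8e-04), LAMA3 (0.49 ± 0.18, adjusted p = 0.0327) and LAMC3 (0.30 ± 0.11, adjusted p = 0.0378). The largest differences the other way among members of at least 5 CPM were ITGB8 (-1.50 ± 0.12, adjusted p = 8.5e-09), ITGA10 (-1.09 ± 0.17, adjusted p = 3.1e-04), ITGA3 (-0.73 ± 0.09, adjusted p = 1.3e-06) and ITGAE (-0.66 ± 0.10, adjusted p = 3.5e-05). ITGB1, LAMB1 and LAMC1, which rose in both, differed by -0.02 ± 0.09, -0.02 ± 0.08 and -0.05 ± 0.10 between them, and none of the 3 passed. The LAMC3 difference was lost in 9 settings, DESeq2 among them (adjusted p = 0.0779), and was 0.19 without Msi2 knockdown replicate 2. The LAMA3 difference was lost in 6, namely DESeq2 (adjusted p = 0.0881), thinning, and without replicate 1 or 2 of the Msi1 or replicate 1 or 3 of the Msi2 knockdown. The ITGA9 difference was lost on thinning (adjusted p = 0.0776).

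Without the trend as a covariate, the double knockdown stood below the single knockdowns in most members that differed. Against the Msi1 knockdown 20 members were lower and 0 higher (57.1% lower, against 26.2% of all genes lower and 29.9% higher). Against the Msi2 knockdown 14 were lower and 4 higher (40.0% and 11.4%, against 22.5% and 22.7%). The 4 higher ones were ITGA2 (1.23 ± 0.15, adjusted p = 4.8e-06), ITGB8 (0.49 ± 0.12, adjusted p = 0.00248), ITGAE (0.48 ± 0.10, adjusted p = 8.0e-04) and LAMB3 (0.81 ± 0.21, adjusted p = 0.00368). The ITGAE call was lost with the trend as a covariate (log2 0.30, adjusted p = 0.107), and the LAMB3 call on thinning (adjusted p = 0.0881). ITGB4 had the largest fall among members of at least 5 CPM, -1.19 ± 0.09 (adjusted p = 2.1e-08) against the Msi2 knockdown. With the trend as a covariate, 1 member passed against the Msi1 knockdown (ITGA3, -0.30) and 9 against the Msi2 knockdown. Of the 9, ITGA2 (1.38), ITGB8 (0.94), LAMB3 (0.88), ITGA5 (0.45), ITGA10 (0.39) and ITGA3 (0.31) were higher in the double knockdown. ITGB4 (-0.86), LAMA3 (-0.82) and ITGA6 (-0.39) were lower, so most of the 9 were higher. Without the covariate ITGA2, ITGB8 and LAMB3 had also been called higher. ITGA5 (0.13) and ITGA3 (0.01) had been above 0 without passing, and ITGA10 (-0.22) below 0 without passing. Over all genes the calls went from 8419 to 759 and from 6792 to 2787.

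Non-additivity was taken as the double-knockdown log2 change less the summed Msi1 and Msi2 changes. It passed in 16 of 35 members, and in all 16 it was below 0 (45.7%, against 19.1% of all genes below 0 and 21.3% above). ITGB1 stood at -1.04 ± 0.13 (adjusted p = 1.4e-05), LAMC1 at -0.96 ± 0.14 (adjusted p = 6.2e-05), LAMB1 at -0.88 ± 0.12 (adjusted p = 4.4e-05) and ITGA3 at -0.94 ± 0.12 (adjusted p = 2.0e-05). For these the double knockdown was lower than additive rises would give. ITGB4 stood at -0.90 ± 0.13 (adjusted p = 4.7e-05): it rose with the Msi2 shRNA alone and was lower in the double than in the Msi1 knockdown (-0.38 ± 0.09, adjusted p = 0.0014). That last difference turned to 0.08 (adjusted p = 0.673) with the trend as a covariate. ITGA10 stood at -1.56 ± 0.26 (adjusted p = 8.2e-04). ITGA2 and LAMB3, whose libraries split by the Msi1 shRNA, did not pass (-0.33 ± 0.24, adjusted p = 0.271, and -0.17 ± 0.31, adjusted p = 0.683). The sums and the double-knockdown change share the control libraries. With the trend as a covariate 5 of the 16 still passed: ITGB1 (-0.69), LAMC1 (-0.40), LAMB1 (-0.42), ITGA3 (-0.47) and ITGB4 (-0.39), while over all genes 648 passed in place of 6058.

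**Figure D5:**
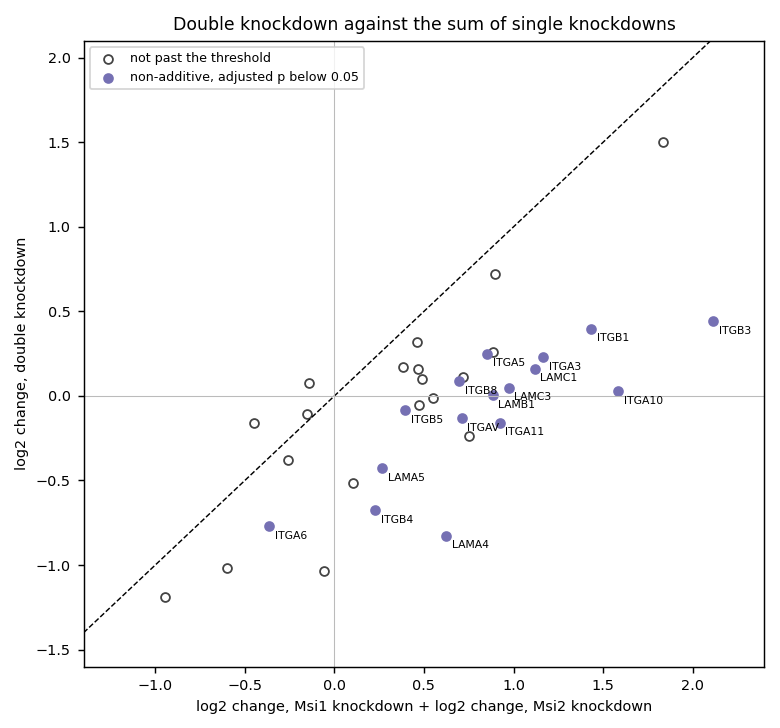
Log2 change in the double knockdown (vertical axis) against the summed log2 changes of the Msi1 and Msi2 knockdowns (horizontal axis) for the 35 tested integrin and laminin genes, all against the same control libraries. The dashed line marks additivity, filled points passed the test of non-additivity, and all 16 filled points lie below the line.

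The partners of these receptors were read from 4 lists, with changes given in the order Msi1, Msi2 and double knockdown. Of the basement membrane proteins that bind laminin, 7 of 12 rose and 1 fell in the Msi1 knockdown, 4 of 12 rose and 3 fell in the Msi2 knockdown and 4 of 12 rose and 3 fell in the double knockdown (median log2 0.45, -0.17 and 0.00). Of all genes, 18.5%, 16.7% and 26.6% rose and 20.9%, 13.6% and 25.3% fell in these 3 comparisons. COL18A1, the collagen that yields endostatin, changed by 0.82 ± 0.09, 0.51 ± 0.09 and 0.52 ± 0.09. The collagen IV chain COL4A1 changed by 0.82 ± 0.10, 0.68 ± 0.10 and 0.44 ± 0.10, and the matrix glycoprotein FBLN1 by 0.44 ± 0.09, 0.52 ± 0.08 and 0.24 ± 0.08. All 9 of these changes passed. COL17A1, the hemidesmosome collagen that binds ITGB4, changed by 0.46 ± 0.06, -0.35 ± 0.06 and 0.22 ± 0.06 and passed each time, with a fall in the Msi2 knockdown, where ITGB4 rose.

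Among other laminin receptors and integrin-linked surface proteins, 10 of 14 rose and 1 fell in the Msi1 knockdown, 7 of 14 rose and 0 fell in the Msi2 knockdown and 6 of 14 rose and 2 fell in the double knockdown (median log2 0.30, 0.26 and 0.13). Of all genes, 18.5%, 16.7% and 26.6% rose and 20.9%, 13.6% and 25.3% fell. The syndecan SDC4, a co-receptor in focal adhesions, went from 175 ± 11.2 CPM in control to 327 ± 29.7, 241 ± 12.8 and 264 ± 9.13 CPM (SD, n = 3), with changes of 0.91 ± 0.07, 0.46 ± 0.07 and 0.60 ± 0.07. SDC1 changed by 0.57 ± 0.07, 0.25 ± 0.07 and 0.53 ± 0.07 and the tetraspanin CD9 by 0.28 ± 0.07, 0.58 ± 0.07 and 0.43 ± 0.07, and all of these passed. SDC3 changed by 0.55 ± 0.07, 0.13 ± 0.07 and 0.25 ± 0.07, of which the second did not pass. Of the focal adhesion adaptors and kinases, which link integrin tails to actin, 6 of 29 rose and 9 fell in the Msi1 knockdown, 9 of 29 rose and 4 fell in the Msi2 knockdown and 14 of 29 rose and 6 fell in the double knockdown (median log2 -0.02, 0.03 and 0.15). Of all genes, 18.5%, 16.7% and 26.6% rose and 20.9%, 13.6% and 25.3% fell, so the rises in the Msi1 and the falls in the double knockdown lay near those shares. The adaptor ZYX changed by 0.56 ± 0.07, 0.37 ± 0.07 and 0.80 ± 0.07 and the caveolar protein CAV1 by -0.30 ± 0.07, -0.76 ± 0.07 and -0.66 ± 0.07, each passing in all 3. VASP, which promotes actin filament growth, changed by 0.10 ± 0.07, 0.43 ± 0.07 and 0.70 ± 0.07 and the scaffold BCAR1 by 0.53 ± 0.07, -0.01 ± 0.07 and 0.61 ± 0.07. The Msi1 change of VASP and the Msi2 change of BCAR1 did not pass.

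Of the integrin ligands other than laminins, 6 of 18 rose and 3 fell in the Msi1 knockdown, 7 of 18 rose and 2 fell in the Msi2 knockdown and 4 of 18 rose and 6 fell in the double knockdown (median log2 0.13, 0.02 and -0.18). Of all genes, 18.5%, 16.7% and 26.6% rose and 20.9%, 13.6% and 25.3% fell. CYR61 and CTGF, secreted matricellular ligands of ITGAV and other integrins, changed by 1.03 ± 0.08, 0.97 ± 0.08 and 0.95 ± 0.08 and by 1.06 ± 0.11, 0.81 ± 0.11 and 0.53 ± 0.11. TGFBI changed by 0.76 ± 0.07, 0.26 ± 0.07 and 0.36 ± 0.07 and the collagen III chain COL3A1 by 0.77 ± 0.10, 0.70 ± 0.10 and 0.37 ± 0.10. All 12 of these changes passed. FN1, the fibronectin that ITGA5 binds, was low, with 2.00 ± 0.375, 2.58 ± 0.427, 1.56 ± 0.257 and 1.56 ± 0.281 CPM in control and the 3 knockdowns, and passed in none. The lists share members of the matrix with the fibroblast markers below and were chosen with earlier results of these data known.

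Markers of other cells were checked beside these results, since matrix and integrin genes are also expressed by stroma. The epithelial keratins KRT8 and KRT18 ran from 1080.4 to 1711 CPM, whereas EPCAM and CDH1 reached at most 0.364 and 1.01 CPM. Summed over 6 epithelial markers the level ran, in control, Msi1, Msi2 and double knockdown, from 2318 to 2482, 2498 to 2859, 2324 to 2621 and 3024 to 3441 CPM. Of the 5 tested epithelial markers, 1 higher and 0 lower in the Msi1, 0 and 2 in the Msi2 and 4 and 0 in the double knockdown passed. Shares of all tested genes in the same order were 18.5%, 16.7% and 26.6% higher and 20.9%, 13.6% and 25.3% lower. Each marker list holds few tested genes, so this count and those below are a description only. Of 10 fibroblast markers 8 were tested, with 1 higher and 1 lower in the Msi1, 1 and 1 in the Msi2 and 1 and 3 in the double knockdown, and their sum ran from 611 to 747, 668 to 811, 783 to 894 and 557 to 650.0 CPM, nearly all of it COL1A2 and COL3A1. The fibroblast markers FAP, PDGFRA and LUM stood at or below 0.399 CPM. Of 9 blood cell and platelet markers 3 were tested, with 1 higher and 0 lower in the Msi1, 1 and 0 in the Msi2 and 1 and 1 in the double knockdown; the sum ran from 18.2 to 21.0, 37.3 to 43.9, 46.8 to 48.1 and 47.4 to 51.7 CPM, mostly CD68, and CD3E and GP9 had no count. Of 7 endothelial markers 4 were tested, with 1 higher and 1 lower in the Msi1, 1 and 0 in the Msi2 and 1 and 2 in the double knockdown, and the sum ran from 31.2 to 31.6, 47.1 to 55.3, 35.0 to 35.9 and 36.9 to 38.7 CPM, mostly EMCN and CDH5, the latter at 6.42 CPM in control and 30.5 CPM in the Msi1 knockdown, with TEK and KDR at or below 0.384 CPM. The part of other cells in the changes of integrins and laminins was not tested beyond these levels.

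Whether the libraries kept strand is not given in the sources used here, so reads of a gene and its antisense partner cannot be told apart. ITGB2-AS1 had 22 to 116 counts per library against 25 to 116 for ITGB2, and ITGA9-AS1 14 to 49 against 6 to 97 for ITGA9, so the values of these low genes are uncertain. LAMA5-AS1 had at most 2 counts per library against 880 to 5103 for LAMA5. ITGA9-AS1 changed by -0.08 ± 0.27 (adjusted p = 0.915), -0.18 ± 0.26 (adjusted p = 0.716) and -0.38 ± 0.27 (adjusted p = 0.256) in the 3 knockdowns.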

How the data were processed

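RNA was sequenced from 12 libraries of sorted MIA PaCa-2 cells in 4 groups of 3, taken from the sample titles, and 200 ng of total RNA went into each, per the labels' protocols. The authors deposited estimated counts per gene as whole numbers and unscaled. The submitters' processing notes name kallisto 0.42.1, CASAVA 1.4 and hg19 with no order or role. For the transcript set and the summing to genes, the sources used here give no detail. No column was left unused.

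Members and lists were chosen with earlier results of these data known. Genes were tested with edgeR 4.0.16 (limma 3.58.1, R 4.3.3). The filter filterByExpr by group (minimum count 10) left 15021 genes. Libraries were scaled by TMM, and all 12 entered 1 robust quasi-likelihood model with 8 residual degrees of freedom. P-values are two-sided and adjusted by Benjamini-Hochberg over all 15021 genes, with a threshold of 0.05. Standard errors are the log2 change divided by the square root of F. CPM are counts per 1e6 of the TMM-scaled total, and levels per kb use the longest transcript in GENCODE 29. An exact permutation test of 3 against 3 cannot go below p = 0.1. There were 7 comparisons. Members with at least 5 CPM in a group and a call against control are given in every library, and up to 4 genes per list with the smallest p and at least 10 CPM are named; others named were chosen after their values were seen. A few results are not reported here. Alternatives were DESeq2 1.42.0, 2 other scalings, 2 other filters, only the compared groups, a replicate block, thinning, the library trend, transcript length and leaving out each library. Scripts were tested on simulated data. Counting error alone limits precision most for members below 5 CPM.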

Additional observations from a re-analysis of the deposited data

Results flagged for a closer look

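For 16 integrin and laminin genes the effect of the Msi2 shRNA differed between cells with and without the Msi1 shRNA, by the edgeR test of non-additivity. Each value is the log2 difference between the 2 effects, with the effects themselves in brackets. All 16 were below 0, where 19.1% of all genes passed below 0 and 21.3% above. When the library trend entered as a covariate, 5 of the 16 still passed (ITGA3, ITGB1, ITGB4, LAMB1 and LAMC1). Only genes of the 16 called lower in the double than in the Msi1 knockdown were checked for a turn of that difference. It turned above 0 in ITGA11, ITGAV, ITGB4, ITGB5, LAMC1 and LAMC3. None of these turned values passed, and they ran from 0.0002 in ITGAV to 0.29 in LAMC3 (adjusted p = 0.343).

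Among alpha chains the values were ITGA10 -1.56 (Msi2 shRNA alone 0.25, with the Msi1 shRNA -1.31), ITGA11 -1.08 (Msi2 shRNA alone 0.44, with the Msi1 shRNA -0.64), ITGA3 -0.94 (Msi2 shRNA alone 0.22, with the Msi1 shRNA -0.72), ITGA5 -0.61 (Msi2 shRNA alone 0.12, with the Msi1 shRNA -0.48), ITGA6 -0.41 (Msi2 shRNA alone -0.15, with the Msi1 shRNA -0.56) and ITGAV -0.84 (Msi2 shRNA alone 0.28, with the Msi1 shRNA -0.57). Among beta chains they were ITGB1 -1.04 (Msi2 shRNA alone 0.71, with the Msi1 shRNA -0.33), ITGB3 -1.67 (Msi2 shRNA alone 1.24, with the Msi1 shRNA -0.43), ITGB4 -0.90 (Msi2 shRNA alone 0.52, with the Msi1 shRNA -0.38), ITGB5 -0.48 (Msi2 shRNA alone 0.25, with the Msi1 shRNA -0.23) and ITGB8 -0.61 (Msi2 shRNA alone -0.40, with the Msi1 shRNA -1.01). Among laminin chains they were LAMA4 -1.45 (Msi2 shRNA alone 0.20, with the Msi1 shRNA -1.25), LAMA5 -0.70 (Msi2 shRNA alone 0.06, with the Msi1 shRNA -0.64), LAMB1 -0.88 (Msi2 shRNA alone 0.43, with the Msi1 shRNA -0.45), LAMC1 -0.96 (Msi2 shRNA alone 0.53, with the Msi1 shRNA -0.42) and LAMC3 -0.93 (Msi2 shRNA alone 0.64, with the Msi1 shRNA -0.29).

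Of these, ITGA11, ITGB3 and LAMA4 reached at most 1.44, 1.25 and 0.549 CPM. The ITGA11 call was lost on thinning (adjusted p = 0.0514) or without Msi1 knockdown replicate 2 (0.0515). The ITGB3 call was lost on leaving out single libraries in each of the 4 groups, with log2 -1.19 without Msi2 knockdown replicate 2. So was the LAMA4 call, which also had no adjusted p in DESeq2. The double-knockdown libraries lay at 1 end of the library trend, so the combination of shRNAs and the trend cannot be told apart.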

How the results depend on the processing

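Of the 15, 12 and 10 member calls against control in the Msi1, Msi2 and double knockdown, 11, 5 and 6 held in direction and threshold under each alternative that was run. Over the 7 comparisons there were 105 member calls. DESeq2 kept 96 of them, RLE factors 104, upper-quartile factors 99, no filter 102 and the length offset 99. Thinning to the smallest library kept 81 of the 99 that could be compared and lost 18, ITGA3 and ITGA5 in the double knockdown among them. The library trend as a covariate kept 60, lost 37 and reversed 8, and the cause was not tested. Reversed log2 values, against the Msi1 knockdown, were ITGA1 0.17, ITGA11 0.037, ITGAV 0.0002, ITGB4 0.082, ITGB5 0.071, LAMC1 0.089 and LAMC3 0.29, and ITGB8 reversed in non-additivity (0.080). With that covariate 5 members fell in the Msi2 and 11 rose in the double knockdown, 1 and 9 differed between the double and the Msi1 and Msi2 knockdowns, and 5 were non-additive. Over all genes 2947 fell in the Msi2 and 3021 rose in the double knockdown in that fit, in place of 2044 and 3990. The 5 rises in the double knockdown became 3 with upper-quartile factors and 3 with the stricter filter (minimum count 50). Leaving out each library gave 10 to 15 rises and 1 to 3 falls in the Msi1, 6 to 9 and 1 to 3 in the Msi2 and 2 to 5 and 5 to 6 in the double knockdown. It gave 11 to 15 calls between the single knockdowns, 16 to 20 and 16 to 19 for the double against the Msi1 and Msi2 knockdowns and 14 to 18 for non-additivity. Over all genes, the covariate took the calls of the double against the Msi1 knockdown from 8419 to 759, those against the Msi2 knockdown from 6792 to 2787 and non-additive calls from 6058 to 648, 206 above and 442 below 0 in place of 3192 and 2866, and leaving out control replicate 1 took the Msi2 calls from 4545 to 3013.

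With the replicate number as a block, all 105 calls were kept, and 11 members rose and 4 fell in the Msi2 knockdown, where ITGA3, ITGAV and ITGA6 were added. Over all 15021 genes the block also raised the Msi2 calls, from 2501 to 2736 rises and from 2044 to 2234 falls. A model of only the compared groups has no form for non-additivity, which uses all 4 groups. Same-numbered libraries of different groups correlated over 0.1 in 10 of 18 pairs, with a median r of 0.16 against -0.10 for other pairs. The titles do not state that the numbers pair the libraries, so the main model was left unpaired. A library correlated best with its own number in 18 of 36 checks against another group, a hint from the data only.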

Other observations

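A few matrix and adhesion genes outside the naming rule stood out after their values were seen. SPARC, a secreted collagen-binding glycoprotein, was low at 0.974 ± 0.373 CPM in control and changed by -1.20 ± 0.41, -2.72 ± 0.46 and -2.38 ± 0.45 (here and below in the order Msi1, Msi2, both), and all 3 changes passed. COL7A1, the collagen of anchoring fibrils under hemidesmosomes, changed by 0.19 ± 0.16, -0.66 ± 0.16 and -0.98 ± 0.17, of which the last 2 passed. COL5A1 went both ways, with -0.37 ± 0.11, 0.58 ± 0.10 and -0.45 ± 0.11, and all 3 passed. HSPG2, the basement membrane proteoglycan perlecan, rose in the Msi1 knockdown (0.88 ± 0.15, adjusted p = 5.3e-04) and did not pass in the others (0.41 ± 0.15 and 0.07 ± 0.15). CD44, an abundant hyaluronan receptor at 2407 ± 160.2 CPM in control, changed by -0.40 ± 0.08, 0.11 ± 0.08 and -0.43 ± 0.08, with the first and last passing. The laminin receptor dystroglycan, DAG1, fell in the double knockdown (-0.53 ± 0.09, adjusted p = 7.5e-05).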
